A study of Mus musculus with 20 samples.

Results

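The comparison set livers of ApoE-/- mice that had received an antagonist of Toll-like receptors 7 and 9 against livers of untreated wild-type mice, and asked which genes of the treated ApoE-/- livers lay at the untreated wild-type level and which lay further off. The samples were chosen by their labels, 5 treated ApoE-/- livers and 5 untreated wild-type livers, 10 of the 20 samples of the series. The treated ApoE-/- mice were male C57BL/6 animals lacking ApoE, fed a diet with 21% fat and 0.15% cholesterol and given the antagonist by intraperitoneal injection at 15 mg/kg, with 3 injections a week between weeks 6 and 11. The wild-type mice were male C57BL/6 animals that received no antagonist and were fed a diet with 35% fat and 0.03% cholesterol. All livers were collected at 14 weeks, after dosing had ended. Genotype, diet and treatment differed together between the groups, so their parts in any difference cannot be told apart here. For orientation the values of 5 untreated ApoE-/- livers, on the diet of the treated ApoE-/- mice, are set beside those of the main comparison. Both side comparisons share arrays with the main one, so the 3 differences of a gene are not independent.

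Apolipoprotein E is the ligand by which remnant lipoproteins are cleared by the liver, and mice without it keep cholesterol-rich particles in the blood. When sterol accumulates in liver cells, the SREBP-2 transcription factor is held in the endoplasmic reticulum and the genes of cholesterol synthesis are transcribed less. Toll-like receptors 7 and 9 sense single-stranded RNA and unmethylated CpG DNA in endosomes of immune cells and signal through MyD88 to cytokine and interferon genes. In liver these receptors are known from Kupffer cells and dendritic cells, while hepatocytes supply most of the RNA of the tissue.

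Illumina bead arrays measured total RNA, 1 array a sample. Between 14436 and 16032 probes were detected (detection p under 0.05) on the wild-type arrays, and 15816 to 17598 on the treated ApoE-/- arrays. Detection on at least 5 of the 10 arrays kept 15371 probes, which gave 11107 entries, 9111 of them named genes (1 probe each) and 1996 probes without a name. Levels are log2 normalised signals, differences are treated ApoE-/- minus untreated wild type in log2 units with limma's standard error (SE), and a gene was called higher or lower at a Benjamini-Hochberg adjusted p under 0.05 in the limma fit. A gene that was not called was taken to lie at the wild-type level when the 95% confidence interval of its difference stayed inside 2-fold either way. A gene was taken to lie beyond 2-fold when limma's treat test against that margin gave an adjusted p under 0.05. Nothing in the labels says that each numbered replicate was its own mouse, so the tests speak only to variation among these arrays, some of which may be technical. The arrays had been scaled in 4 sets by genotype and array batch before deposit, so genotype and scaling set change together. In bulk liver RNA, fewer cells of a type and less RNA per cell cannot be told apart.

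By these rules 6086 of the 11107 entries (54.8%) lay at the wild-type level. Another 4828 (43.5%) were called, 2573 higher (23.2%) and 2255 lower (20.3%), and of the called entries 2765 had an interval that stayed inside 2-fold, so that 79.7% of all entries had such an interval. The remaining 193 (1.74%) were undecided, not called and with an interval that reached past 2-fold. Beyond 2-fold lay 404 entries (3.64%), of which 376 were higher (3.39%) and 28 lower (0.252%). The median difference over all entries was -0.015 and the median size of a difference was 0.296, against a median SE of 0.143. Under quantile normalisation the higher entries were 53.3% of those called. With arrays scaled to equal medians in its place, 3399 entries were higher and 990 lower, which made 77.4% of the called entries higher and moved the median of all entries to 0.164. After that scaling 451 entries lay beyond 2-fold and higher and 21 lower. Sizes of differences hold on the background-corrected scale, and without background correction 114 entries lay beyond 2-fold.

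**Figure D1:**
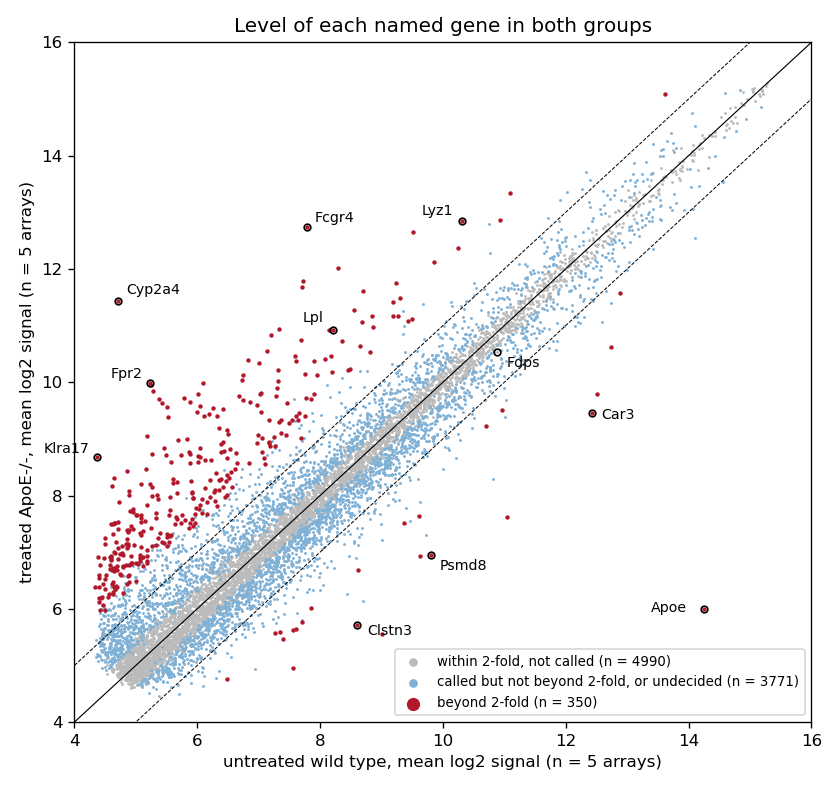
Mean log2 signal of each of the 9111 named genes in untreated wild-type livers (horizontal axis) and treated ApoE-/- livers (vertical axis), n = 5 arrays each, with the line of equality and dashed lines at 2-fold. Most genes lie along the line, the genes beyond 2-fold lie mainly above it, and Apoe stands alone at the lower right with means of 14.25 and 6.00.

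Apoe itself checked the labels. Its probe read 14.61, 14.61, 14.21, 13.90 and 13.90 on the wild-type arrays and 6.67, 5.98, 6.33, 5.26 and 5.74 on the treated ApoE-/- arrays, where it was still above the detection limit on all 5. The difference was -8.25 (SE 0.247, adjusted p = 4.94e-15), and no array lay out of place. Of 15 genes chosen because they neighbour Apoe on chromosome 7, all 15 had a probe and 13 were tested. The other genes of chromosome 7 were not looked at as a set. Of the 13 tested 10 lay at the wild-type level, beside 54.8% of all entries. Clptm1, for example, differed by 0.01. Trappc6a (0.54) and Bcl3 (0.55) were higher and Nectin2 (-0.41) was lower. Replicates 1 to 3 and replicates 4 and 5 formed 2 array batches, by the form of their column names. In the second batch alone Trappc6a (0.35) and Bcl3 (0.52) were not called, and Nectin2 was not called in the first batch alone (-0.24) or with equal array medians (-0.23).

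Several enzymes of cholesterol synthesis lay at the wild-type level in treated ApoE-/- livers and far below it in untreated ApoE-/- livers. Of 20 enzymes listed 15 had a probe and 14 were tested. None was called higher, 7 were lower, 5 lay at the wild-type level and 2 were undecided. Among all entries 23.2% were higher, 20.3% lower and 54.8% at the wild-type level. The median difference of the enzymes was -0.64 against -0.015 over all entries, and it was -0.26 in the first batch and -0.97 in the second. The 5 at the wild-type level were Fdps, Mvd, Pmvk, Dhcr7 and Hsd17b7, of which Fdps, Mvd and Hsd17b7 did not keep this place in the second batch alone. In untreated ApoE-/- livers the median of the 14 enzymes was -1.64 relative to wild type, and treated minus untreated ApoE-/- had a median of 1.07. Over all entries untreated ApoE-/- minus wild type had 4.86% called higher and 1.8% lower, and treated minus untreated ApoE-/- 19.1% higher and 15.8% lower.

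Fdps, which makes farnesyl diphosphate, read 11.05, 10.91, 10.80, 10.78 and 10.83 on the wild-type arrays and 11.08, 10.45, 11.39, 9.62 and 10.09 on the treated ApoE-/- arrays. The untreated ApoE-/- arrays read 8.53, 7.75, 7.89, 8.40 and 8.26. Treated and wild-type values overlapped, and every untreated ApoE-/- array lay below both. The difference from wild type was -0.35 (SE 0.250, 95% interval -0.87 to 0.17), beside 2.36 for treated minus untreated ApoE-/- and -2.71 for untreated ApoE-/- minus wild type. This placing rested on the first 3 arrays of each group. Fdps differed by 0.06 in the first and by -0.95, a called fall, in the second. Without treated replicate 1 or 3 the difference was -0.48 or -0.56, and the interval then reached past 2-fold.

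Mvd, the decarboxylase that ends the mevalonate steps, had wild-type values of 6.27, 5.71, 5.92, 6.69 and 6.56 and treated values of 5.40, 6.02, 7.22, 5.96 and 5.79. Its untreated ApoE-/- values, from 4.39 to 4.72, were below the detection limit on all 5 arrays. The difference from wild type was -0.15 (SE 0.256), 0.25 in the first batch and -0.75 in the second. Pmvk, phosphomevalonate kinase, differed by -0.09 (SE 0.227) with batch values of -0.06 and -0.14. Dhcr7, the last reductase of the pathway, differed by -0.24 (SE 0.161), with 8.16 to 8.57 on wild-type and 7.84 to 8.78 on treated arrays, where untreated ApoE-/- arrays lay from 6.99 to 7.20. Without treated replicate 3 Dhcr7 was called lower (-0.38, adjusted p = 0.0412). Hsd17b7, a keto-reductase of the same pathway, differed by -0.18 (SE 0.179), and in the second batch alone (-0.61) its interval reached past 2-fold, as did that of Mvd.

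Other enzymes of the pathway stayed below wild type. Nsdhl, a sterol dehydrogenase, read 7.28, 7.34, 7.45, 7.20 and 7.08 in wild type and 5.83, 6.13, 6.41, 5.07 and 6.36 in treated ApoE-/- livers, with no overlap. It was lower, differing by -1.31 (SE 0.206, adjusted p = 3.33e-05), and its batch values of -1.24 and -1.42 were alike. All 4 Nsdhl probes pointed down, from -1.55 to -1.03. Tm7sf2, a sterol reductase, was lower, differing by -1.25 (SE 0.235, adjusted p = 0.000217) and differed by 0.34 between treated and untreated ApoE-/- livers, a difference that was not called. Ebp, the sterol isomerase, and Sc5d, a sterol desaturase, were lower, differing by -0.46 and -0.85, beside treated minus untreated values of 0.05 and -0.16, neither called. Cyp51, the lanosterol demethylase, and Msmo1, a methylsterol oxidase, were lower, differing by -0.96 and -0.66 even though they lay 1.84 and 2.10 above untreated ApoE-/- livers. In the first batch alone Cyp51 (-0.60) and Msmo1 (-0.28) were not called. Lss, which closes the sterol rings, was lower, differing by -0.61 (adjusted p = 0.0243), a call that was lost without treated replicate 4 (-0.48) or wild-type replicate 1 (-0.54), in the first batch alone (-0.39) and with equal array medians (-0.41).

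Idi1, an isomerase, and Sqle, squalene epoxidase, were the undecided members. Sqle read 9.77, 9.12, 9.40, 9.65 and 9.66 in wild type and 8.35, 9.53, 10.03, 7.90 and 8.09 in treated ApoE-/- livers. Treated replicate 2 lay among the wild-type arrays, replicate 3 above them and the other treated arrays below them, so the interval of the difference ran from -1.51 to 0.03. Both genes had fallen furthest in untreated ApoE-/- livers, by -3.03 and -3.88 relative to wild type. The sum of linear signals over the 14 enzymes ran from 12000 to 13100 on wild-type arrays, from 6280 to 14300 on treated ApoE-/- arrays and from 3860 to 4910 on untreated ApoE-/- arrays.

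**Figure D2:**
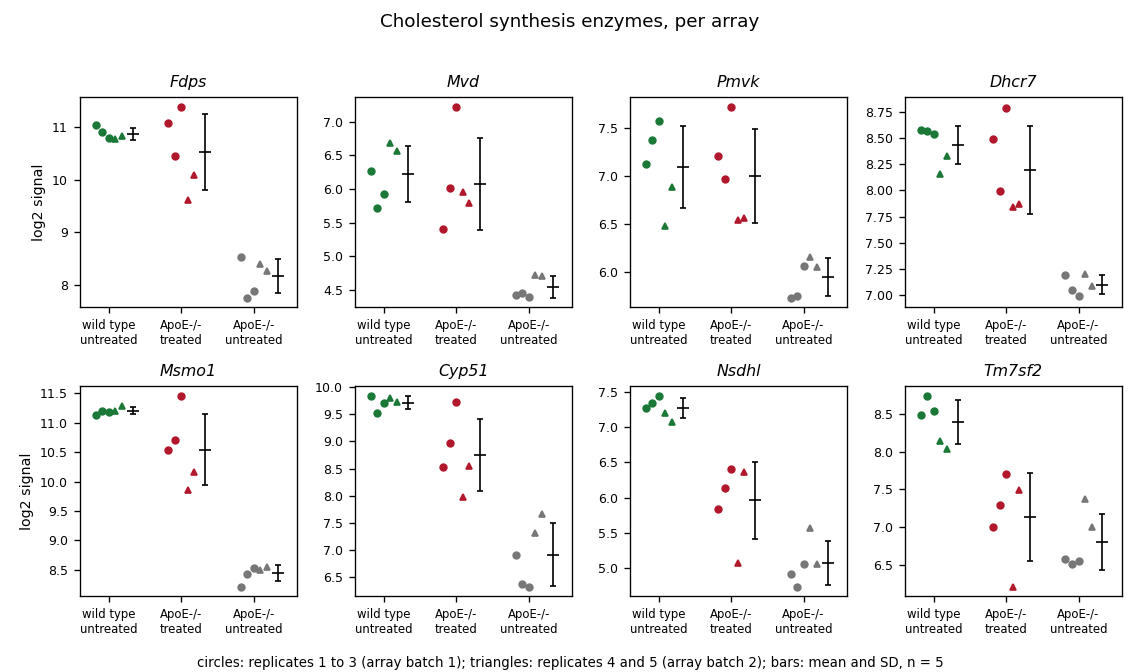
Log2 signal of 8 cholesterol synthesis enzymes on each array (vertical axis, scaled per gene) in untreated wild-type, treated ApoE-/- and untreated ApoE-/- livers, with mean and SD (n = 5). Fdps, Mvd, Pmvk and Dhcr7 overlap with wild type in treated ApoE-/- livers, while Nsdhl and Tm7sf2 stay below it on every array.

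Srebf2, which encodes SREBP-2, read 6.17 to 6.40 in wild type, 5.98 to 6.79 in treated ApoE-/- and 5.65 to 5.96 in untreated ApoE-/- livers. It differed from wild type by -0.02 (SE 0.124), beside 0.50 and -0.52 for the side comparisons. Insig1, which retains SREBP in the endoplasmic reticulum, differed by 0.07 (SE 0.189) on its brightest probe, yet its other 2 probes gave -0.95 and -1.02, and with the mean of its probes it was called lower (-0.64, adjusted p = 0.00185). Stard4, a sterol carrier, remained lower, differing by -0.92 (SE 0.161, adjusted p = 0.000104) and Scap, the escort of SREBP, by -0.51, a call that was lost with equal array medians (-0.33). Of the 13 regulators and carriers listed, 8 were tested, 2 were higher, 3 lower and 3 at the wild-type level, and with equal array medians 1 was lower. Among all entries 23.2% were higher, 20.3% lower and 54.8% at the wild-type level.

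None of 19 tested bile acid genes was higher, 6 were lower, 10 lay at the wild-type level and 3 were undecided, with a median of -0.38. Among all entries 23.2% were higher, 20.3% lower and 54.8% at the wild-type level. With the array batch as a block 11 of the 19 were lower. Cyp7a1, whose enzyme sets the pace of bile acid formation, was among the undecided at 0.38 (SE 0.348, 95% interval -0.34 to 1.11). Abcb11, the bile salt export pump, was lower, differing by -0.82 (adjusted p = 0.000564) and Hsd3b7 by -0.63. Baat, which conjugates bile acids, and Acox2, which shortens their side chain, differed by -0.02 and 0.07. Among 17 tested apolipoproteins, lipases and related genes 10 lay at the wild-type level, beside 54.8% of all entries. They included Apoa2 (-0.03) and Apof (0.01). Apoc2, an activator of lipoprotein lipase singled out after its values were seen, counted among them at 0.15 on its brightest probe, while its other probe gave -2.71. Apart from Apoe, Mttp, the triglyceride transfer protein of VLDL assembly, was lower, differing by -0.91 (SE 0.148, adjusted p = 4.72e-05) with no overlap between the groups. Of 11 tested efflux genes 4 were higher and 3 lower, beside 23.2% higher and 20.3% lower over all entries. Abcg1, a sterol exporter of macrophages, was higher by 2.65 (SE 0.205), whereas Abca1 differed by 0.02 (SE 0.220).

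A few genes outside sterol synthesis also differed between treated and untreated ApoE-/- livers and lay at the wild-type level in the treated ones. Apoa4, an apolipoprotein of triglyceride-rich particles, read 11.39, 11.70, 10.50, 11.07 and 10.43 in wild type, 10.93, 11.34, 10.78, 10.76 and 11.02 in treated ApoE-/- livers and 11.61 to 14.09 in untreated ApoE-/- livers. The treated arrays fell inside the wild-type range. Its difference from wild type was -0.05 (SE 0.344), beside -1.66 for treated minus untreated ApoE-/-. Cyp3a11, a drug-metabolising P450, lay at 11.55 to 12.42 in wild type, 11.34 to 12.32 in treated and 13.07 to 13.33 in untreated ApoE-/- livers, and differed from wild type by 0.14 (SE 0.257). Enho, which encodes the secreted factor adropin, differed by 0.13 (SE 0.203) and Aldoc, an aldolase, by 0.29 (SE 0.243), beside -1.27 and -1.21 for untreated ApoE-/- minus wild type. With equal array medians the interval of Aldoc (0.52) reached past 2-fold. Rdh11, a retinol dehydrogenase, differed by -0.25 (SE 0.184), with 0.01 in the first batch and -0.64, a called fall, in the second. Smpd3, a neutral sphingomyelinase, differed by -0.36 (SE 0.247), and without treated replicate 1 (-0.47) or wild-type replicate 2 (-0.54) its interval reached past 2-fold. For Apoa4 the arrays of either batch alone left the interval past 2-fold, at -0.18 and 0.14.

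Most fatty acid oxidation genes measured were lower in treated ApoE-/- than in wild-type livers. Of 31 genes listed 27 had a probe and 24 were tested, of which 18 were lower, none was higher, 2 lay at the wild-type level and 4 were undecided, beside 20.3% lower over all entries. The median was -0.76, or -0.85 and -0.64 within the batches. In 15 of the 24 genes the groups did not overlap, beside 27.9% of all entries. For this list the median was -0.61 between treated and untreated ApoE-/- livers and -0.07 between untreated ApoE-/- and wild-type livers.

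Ech1, an auxiliary enzyme of unsaturated fatty acid oxidation, read 12.95, 12.96, 12.82, 12.92 and 12.79 on wild-type and 11.59, 11.51, 11.51, 11.61 and 11.67 on treated ApoE-/- arrays. The spread within either group was small against the gap, and the difference was -1.31 (SE 0.0853, adjusted p = 4.81e-10). Eci1, an enoyl-CoA isomerase, was lower, differing by -1.14 (SE 0.112, adjusted p = 9.82e-08). Hadh, which oxidises short-chain hydroxyacyl-CoA, was lower, differing by -1.11 (SE 0.162) on its brightest probe and by -0.42 on a second probe. Bdh1, the ketone body dehydrogenase, was lower, differing by -0.99. Ppara, the nuclear receptor that drives these genes, read 6.29 to 6.65 in wild type and 5.57 to 5.72 in treated ApoE-/- livers (-0.79, SE 0.124, adjusted p = 3.27e-05). Acadvl, the very-long-chain dehydrogenase, differed by -0.14 and lay at the wild-type level, but was called lower from the authors' series matrix (-0.15) and with the mean of its probes (-0.18). Acads did so at -0.03, while its second probe gave -0.64.

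Lipid droplet genes shared this direction in part. Of 13 tested 6 were lower, 2 higher, 3 at the wild-type level and 2 undecided. Among all entries 20.3% were lower, 23.2% higher and 54.8% at the wild-type level. Fitm1, which helps droplets form, read 7.35, 7.5, 7.33, 7.29 and 7.22 in wild type and 5.24, 5.30, 5.77, 5.70 and 5.91 in treated ApoE-/- livers, and was beyond 2-fold lower (-1.75, SE 0.142, adjusted p = 7.39e-09). G0s2, an inhibitor of triglyceride lipase, was lower, differing by -2.43 (SE 0.454), and Plin2, the main droplet coat protein of liver, by -1.35 (SE 0.299). G0s2 was variable in wild type too, from 8.56 to 10.77, and did not overlap with its treated range of 6.08 to 8.33. In untreated ApoE-/- livers the 3 genes differed from wild type by -0.35, 0.17 and -0.06, none of them called. Fgf21, a fasting-induced hormone, was lower, differing by -1.90 (SE 0.344), and in the second batch alone this difference (-1.48) was not called. Of the 19 tested genes of fatty acid and triglyceride synthesis 5 were higher and 5 lower, near the 23.2% higher and 20.3% lower over all entries. With equal array medians 3 of them were lower. Lpin1, a phosphatidate phosphatase and coactivator, was higher by 2.72 (SE 0.486, adjusted p = 0.000133), with wild-type arrays from 6.38 to 8.57 and treated arrays from 9.29 to 11.03. Elovl6, a fatty acid elongase, was lower, differing by -0.97 on its brightest probe and by -0.36 on a second. Mlxipl, the carbohydrate-responsive factor ChREBP, differed by -0.05.

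**Figure D3:**
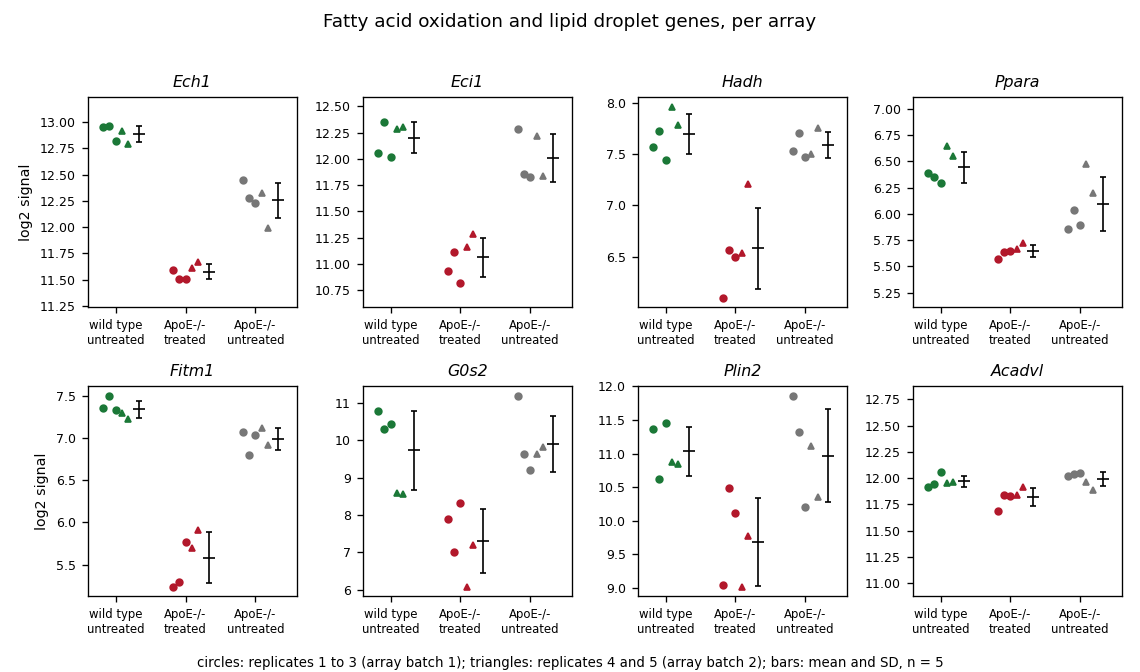
Log2 signal of fatty acid oxidation genes (Ech1, Eci1, Hadh, Ppara, Acadvl) and lipid droplet genes (Fitm1, G0s2, Plin2) on each array, with mean and SD (n = 5). All but Acadvl are lower in treated ApoE-/- livers than in untreated wild type without overlap, and untreated ApoE-/- livers of Hadh, G0s2 and Plin2 overlap with wild type.

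Hepatocyte markers were measured as well, and whether hepatocyte content had a part in these shifts was not tested. Of 15 tested, 12 lay at the wild-type level, 2 were lower and none was higher, with a median of -0.08. Among all entries 54.8% lay at the wild-type level, 20.3% were lower and 23.2% higher. Ttr, transthyretin, read 15.04 to 15.32 in wild type and 15.08 to 15.25 in treated ApoE-/- livers (-0.03, SE 0.0829). Hnf4a, a master transcription factor of hepatocytes, differed by 0.01 (SE 0.09). The Alb probe was undecided at 0.26 (SE 0.712), since it read 7.36 to 10.54 in wild type and 7.48 to 10.69 in treated livers, with the lowest values of both groups on replicates 4 and 5. Cebpa, another liver transcription factor, was lower, differing by -0.95 (adjusted p = 0.00338). Hpn, a hepatocyte protease, was lower by -0.56, a call that was lost in the second batch alone (-0.45). Other Hpn probes gave -0.26 and -0.12. The summed linear signal of the 15 markers was 210000 to 229000 on wild-type and 198000 to 219000 on treated arrays.

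Many genes of macrophages and other white cells lay further off. Of the 19 tested macrophage and Kupffer cell genes 17 were higher, 11 of them beyond 2-fold, beside 23.2% higher and 3.39% beyond 2-fold and higher over all entries. The median was 1.95, with 2.33 in the first and 1.57 in the second batch. For the same list treated minus untreated ApoE-/- had a median of 1.14 and untreated ApoE-/- minus wild type one of 0.85. The summed linear signal of these 19 genes ran from 3890 to 5630 on wild-type and from 17400 to 36900 on treated ApoE-/- arrays. Of these genes 16 were detected on all 5 wild-type arrays, and 14 of those 16 were higher. Over all named genes beyond 2-fold and higher, 45 of 326 were detected on none of the wild-type arrays, and such a gene entered the test through the group where it was high.

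Fcgr4, an activating Fc receptor for IgG, had the largest rise but one. It read 7.74, 7.57, 7.5, 7.85 and 8.25 in wild type and 13.37, 13.40, 13.08, 12.32 and 11.51 in treated ApoE-/- livers, while untreated ApoE-/- livers read 8.36 to 9.38. The difference was 4.95 (SE 0.290, adjusted p = 1.21e-10), 5.68 in the first batch and 3.86 in the second. Fcer1g, the signalling chain of several Fc receptors, was higher by 4.06 (SE 0.269). Marco, a scavenger receptor, was higher by 3.88 (SE 0.257).

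Several genes were near the wild-type level in untreated ApoE-/- livers and far above it in treated ones. Fpr2, a formyl peptide receptor of phagocytes, read 4.72, 4.96, 4.97, 5.98 and 5.55 in wild type, 10.48, 10.69, 10.43, 9.42 and 8.90 in treated and 5.51 to 6.31 in untreated ApoE-/- livers. It was detected on 3 of the 5 wild-type arrays, and its difference was 4.75 (SE 0.306, adjusted p = 4.56e-10). Clec4a1, a C-type lectin receptor of myeloid cells, differed by 4.71 and its relatives Clec4a3 and Clec4b1 by 3.76 and 3.56. Slamf9, a SLAM family receptor, differed by 4.34. Ms4a6d, a membrane protein of macrophages, differed by 4.20 and was also higher in untreated ApoE-/- livers, by 1.62. Cd72, a receptor known from B cells, read 4.94 to 5.91 in wild type, 8.33 to 10.40 in treated and 4.86 to 5.77 in untreated ApoE-/- livers (4.05, SE 0.285). Klra17, a Ly49-type receptor, was below detection on all wild-type and all untreated ApoE-/- arrays, so on the background-corrected scale it was at least 13.1-fold higher (adjusted p = 1.56e-10). Without background correction its log2 difference was 2.20. For such bounds a wild-type array entered with its own reading or with its dimmest detected probe, whichever was brighter. Treated replicates 4 and 5 were the lowest of their group for Fcgr4, Fpr2, Clec4a1, Slamf9 and Klra17, and still lay above every wild-type array.

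Another set of genes lay beyond 2-fold of wild type in treated ApoE-/- livers. Their treated minus untreated ApoE-/- differences were not called, and the intervals of these stayed inside 2-fold. Lyz1, a lysozyme, read 10.37, 10.01, 10.37, 10.58 and 10.23 in wild type, 12.93, 12.80, 13.01, 12.93 and 12.53 in treated and 12.58 to 13.12 in untreated ApoE-/- livers. The difference from wild type was 2.53 (SE 0.115, adjusted p = 5.94e-12) beside -0.01 for treated minus untreated ApoE-/-. Lyz2, a near-identical neighbour whose signal may be shared with Lyz1, gave 2.51 on its brightest probe and 2.05 and 0.35 on the others. Lpl, lipoprotein lipase, was higher by 2.71 (SE 0.230), with wild-type arrays from 7.79 to 8.74 and treated arrays from 10.32 to 11.24. Trem2, a lipid-sensing receptor of macrophages, was higher by 2.52 (SE 0.269) and Cd207, known as langerin, by 2.49 (SE 0.231). The treated minus untreated ApoE-/- differences of Lpl, Trem2 and Cd207 were -0.25, -0.19 and -0.11, none called. Saa3, a serum amyloid made in macrophages, was higher by 3.33 (SE 0.352) beside a treated minus untreated difference of 0.03, and Tnfaip3, which restrains NF-kB, by 2.16 beside 0.52. Tmem86a, a lysoplasmalogenase, was higher by 1.97 (SE 0.164).

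Cd163, the haemoglobin scavenger receptor of resident macrophages, went the other way. It read 7.82, 7.86, 7.53, 7.57 and 7.71 in wild type, 5.91, 5.39, 6.04, 5.98 and 5.50 in treated and 4.86 to 6.12 in untreated ApoE-/- livers. The difference was -1.93 (SE 0.204, adjusted p = 2.54e-07), the single gene of the macrophage list that was lower. Clec4f, which defines Kupffer cells, was higher by 0.66 (SE 0.195, adjusted p = 0.00986), a call that was lost in the second batch alone (0.42). Timd4, a marker of long-resident Kupffer cells, lay at the wild-type level (0.01, SE 0.209).

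Lipid-associated macrophage genes are expressed by macrophages that have taken up lipid. Of 10 tested, 9 were higher and 6 of these beyond 2-fold, beside 23.2% higher and 3.39% beyond 2-fold and higher over all entries. The median of the 10 was 1.98. The median was 0.80 without background correction, 0.79 in the authors' series matrix and 1.26 over the 13 members with a probe, of which 9 were higher and 4 at the wild-type level. Gpnmb, a glycoprotein of lipid-laden macrophages, read 4.49 to 5.33 in wild type, 7.60 to 9.13 in treated and 9.46 to 11.65 in untreated ApoE-/- livers. It was higher than wild type by 3.20 (SE 0.356) and lower than untreated ApoE-/- by -2.62. Mmp12, the macrophage elastase, stood at 0.87 (SE 0.230, adjusted p = 0.00441) beside -2.61, with treated arrays from 5.24 to 6.12 just above the wild-type range of 4.42 to 5.08. Without background correction the Mmp12 difference was 0.26 and not called. Lgals3, galectin-3, was higher by 3.72. Itgax, the integrin CD11c, was below detection on all wild-type arrays and at least 3.11-fold higher on the background-corrected scale. Over the alternative settings the Itgax log2 difference was as low as 0.80. Fabp5, a fatty acid binding protein, was placed at the wild-type level at -0.13, but within either batch, in a fit of the 10 arrays alone, and without treated replicate 3 (-0.32), treated replicate 5 (-0.24) or wild-type replicate 2 (-0.51) its interval reached past 2-fold.

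**Figure D4:**
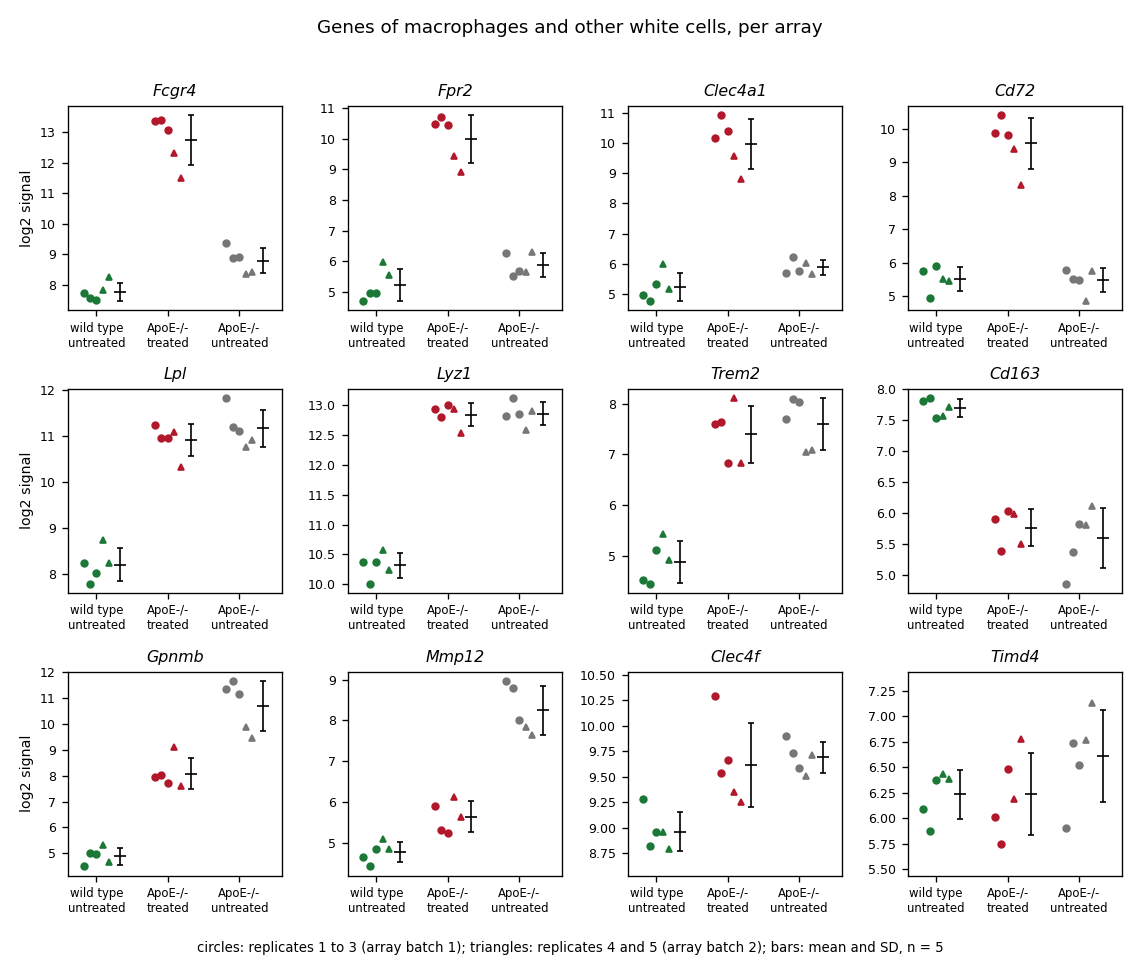
Log2 signal of 12 genes of macrophages and other white cells on each array, with mean and SD (n = 5). Fcgr4, Fpr2, Clec4a1 and Cd72 are highest in treated ApoE-/- livers, Lpl, Lyz1, Trem2 and Cd163 lie in treated and untreated ApoE-/- livers at like distances from wild type, Gpnmb and Mmp12 lie between wild type and untreated ApoE-/-, and Timd4 overlaps in all 3 groups.

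Marker genes of further cell types also differed, and their part in the results was not tested. Among all entries 23.2% were higher, 20.3% lower and 54.8% at the wild-type level. Of 7 tested T and NK cell genes 6 were higher and 1 was lower. Among the higher ones the T cell receptor chain Cd3e gave 1.32 (adjusted p = 5.96e-07) on its brightest probe and 0.5 on a second. The lower one gave -0.77 on its brightest probe and 1.68 on a second, so its direction depended on the probe. Of these 7 genes 2 were detected on all wild-type arrays, and over the 14 members with a probe 6 were higher, 1 lower and 7 at the wild-type level, with a median of 0.26. The summed signal of the list ran from 667 to 968 in wild type and from 799 to 1030 in treated livers. Of 6 tested neutrophil genes all 6 were higher, including S100a8 (2.15), which was not called in the second batch alone (1.58), and Lcn2 (3.98), which hepatocytes also make. That list had 16 members and 14 with a probe, of which 8 were not tested, and 1 of the 6 was detected on all wild-type arrays. Over the 14 members 7 were higher and 7 at the wild-type level, with a median of 0.74. The summed signal of the list ran from 260 to 870 in wild type and from 2590 to 7850 in treated livers. Of 3 tested B and plasma cell genes Cd79b (1.88) and Cd72 (4.05) were higher and Cd22 (0.22) lay at the wild-type level. None of the 3 was detected on all wild-type arrays. Their median was 1.88, or 0.74 without background correction. Of the 7 members with a probe 3 were higher and 4 at the wild-type level, with a median of 0.22. Krt19, which defines bile ducts, was detected on none of the 10 arrays. The endothelial list had 7 of 13 members higher, 1 lower and 5 at the wild-type level. Stab2 (1.02) and Egfl7 (2.33) were higher, and Clec4g (0.06) and Stab1 (-0.05) lay at the wild-type level, though other Stab1 probes gave 0.79 and 1.11. Of the 15 members with a probe 7 were higher, 1 lower and 7 at the wild-type level, with a median of 0.28. The stellate cell and matrix list had 15 of 18 members higher and 3 at the wild-type level, with Col1a1 at 0.96 and Col3a1 at 1.73. Hba-a1, a globin of red cells, was higher by 1.35 and Alas2, the erythroid haem enzyme, lower by -0.53, a call that was lost in the second batch alone (-0.46).

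Of the antagonist's targets, Tlr7 was higher and Tlr9 was not detected. Tlr7 read 4.69, 4.84, 4.93, 5.35 and 4.61 in wild type, where it was detected on 1 of 5 arrays, and 6.32, 6.48, 6.73, 6.89 and 5.96 in treated ApoE-/- livers. The difference was 1.59 (SE 0.179, adjusted p = 5.86e-07), and untreated ApoE-/- livers, at 5.73 to 6.27, overlapped with treated ones and not with wild type. Tlr9 was detected on 0 of the 10 arrays and was not tested. Unc93b1, which carries both receptors to endosomes, was higher by 1.66 (SE 0.142) on its brightest probe and by 0.82 on a second. The adaptor Myd88 was higher by 0.64 (SE 0.172, adjusted p = 0.00477). Myd88 groups overlapped, and its difference was 0.90 in the first batch and 0.27, not called, in the second. Of 31 pathway genes 28 had a probe and 23 were tested, of which 15 were higher, 3 lower, 4 at the wild-type level and 1 undecided, beside 23.2% higher over all entries. With equal array medians 1 was lower and 7 lay at the wild-type level. Tlr13, a sensor of bacterial RNA, was higher by 1.88 and Cd14, a co-receptor, by 2.59, whereas Tlr5, the flagellin receptor, was lower, differing by -1.39 (SE 0.179, adjusted p = 3.19e-06). Tirap, an adaptor of surface receptors, and Irf3, an interferon regulatory factor, lay at the wild-type level at -0.04 and 0.11.

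Of 20 tested cytokine, chemokine and adhesion genes 16 were higher and none was lower, beside 23.2% higher and 20.3% lower over all entries. The median of the 20 was 1.34. Of these 20 genes 10 were detected on all 5 wild-type arrays, and 8 of those 10 were higher. Over the 28 members with a probe 17 were higher and 10 at the wild-type level, with a median of 0.80. Ccl4 and Ccl5, which attract T cells and monocytes, were higher by 4.56 (SE 0.322) and 3.48 (SE 0.210), and a second Ccl4 probe gave 2.34. Il1b, an inflammatory cytokine, read 5.11 to 6.78 in wild type and 8.20 to 10.02 in treated ApoE-/- livers (2.69, SE 0.306, adjusted p = 6.74e-07), beside 0.35 for untreated ApoE-/- minus wild type, which was not called. Cxcl10, an interferon-induced chemokine, and Il18 lay at the wild-type level at 0.29 and 0.21, although in the first batch alone the interval of Cxcl10 (0.50) reached past 2-fold. MHC class II genes were higher in 7 of 8 tested, all 7 beyond 2-fold, with a median of 1.89. Among all entries 3.39% were beyond 2-fold and higher. H2-Ab1, a class II beta chain, was higher by 2.23 on its brightest probe and by 1.43 and 1.78 on the others. The exception was H2-Oa at 0.26, which was called with the array batch as a block (adjusted p = 0.0441) or the slide as a block (adjusted p = 0.0492), with equal array medians (0.32), and without treated replicate 2 (0.31) or wild-type replicate 2 (0.34).

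Interferon-stimulated genes were split between higher and wild-type level. Of 34 listed 32 had a probe and 26 were tested, of which 18 were higher, 8 lay at the wild-type level and none was lower. The median was 0.78, or 1.00 and 0.43 within the batches. Among all entries 23.2% were higher, 20.3% lower and 54.8% at the wild-type level. Ifi27l2a, an interferon-induced membrane protein, was higher by 2.33 (SE 0.160, adjusted p = 9.02e-10). Oas2, a sensor of double-stranded RNA below detection on all wild-type arrays, was at least 2.21-fold higher on the background-corrected scale. Over the alternative settings the Oas2 log2 difference was as low as 0.57. Oasl2 gave 2.17 on its brightest probe and 0.46 on another. Irf9 and Irgm1 differed by 0.08 and -0.10.

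Both kinds carried the interferon-stimulated response element in their promoters, so the windows of 6 such genes are shown, 4 that were higher and 2 at the wild-type level. RefSeq promoters of GRCm38.p6 around the gene start were at hand for 20 of the 26 genes. The motif, a pair of GAAA with any 2 bases between, was searched on both strands, and a gene counted if any of its promoters held it. It was in 13 of these 20 genes (65.0%) and in 289 of 7430 tested named genes with a promoter (3.89%). Among all 27025 genes with a promoter it was in 1079 (3.99%), and among all 32851 promoters in 1131 (3.44%). Of the 13 genes with the motif 8 were higher and 5 at the wild-type level, and of the 7 without it 5 were higher and 2 at the wild-type level. Capitals mark the motif, which reads as a pair of TTTC where it lies on the other strand, and copies that overlap run together.
Gbp2 (chr3:142620584-142620633, plus strand): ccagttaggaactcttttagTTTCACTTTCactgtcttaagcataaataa
Gbp3 (chr3:142559979-142560028, plus strand): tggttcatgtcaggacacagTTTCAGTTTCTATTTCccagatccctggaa
Oas1g (chr5:120887602-120887651, minus strand): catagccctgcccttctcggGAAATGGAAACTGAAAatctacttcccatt
Igtp (chr11:58199502-58199551, plus strand): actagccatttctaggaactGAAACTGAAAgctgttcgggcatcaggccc
Isg15 (chr4:156200867-156200916, minus strand): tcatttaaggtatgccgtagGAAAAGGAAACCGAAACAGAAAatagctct
Irgm1 (chr11:48871421-48871470, minus strand): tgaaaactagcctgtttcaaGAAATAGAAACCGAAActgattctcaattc

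The genes with these windows ranged widely. Gbp2, an interferon-inducible GTPase, was higher by 1.79 (SE 0.229), with 2.33 in the first batch and 0.97 in the second, and its relative Gbp3 by 1.28 (SE 0.179). Oas1g was higher by 1.42 (SE 0.196) on its brightest probe and by 0.26 on a second, and belongs to a family of near-identical copies whose signals may be shared. Igtp, another GTPase, was higher by 0.84 (SE 0.238, adjusted p = 0.00717), but by 1.47 in the first batch and -0.10 in the second. Isg15, a ubiquitin-like modifier with 3 copies of the motif in the window, read 6.6, 6.46, 6.20, 6.49 and 6.19 in wild type and 6.99, 6.73, 6.70, 5.88 and 6.30 in treated ApoE-/- livers. Its difference was 0.13 (SE 0.197), though it was called higher in the first batch alone (0.39, adjusted p = 0.0355). Irgm1, with 2 copies, read 12.53 to 12.87 in wild type and 12.45 to 13.00 in treated ApoE-/- livers, with differences of -0.02 and -0.23 within the batches. The sterol regulatory element TCACNCCAC, searched likewise, was in 408 of all promoters (1.24%). It was in 0 of the 12 cholesterol synthesis genes and 0 of the 6 regulators with a promoter at hand. At so low a share over all promoters, sets of 12 and 6 genes would most often hold none. Only this string, close to the gene start, was searched, so the counts cannot decide whether these genes carry a sterol regulatory element.

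**Figure D5:**
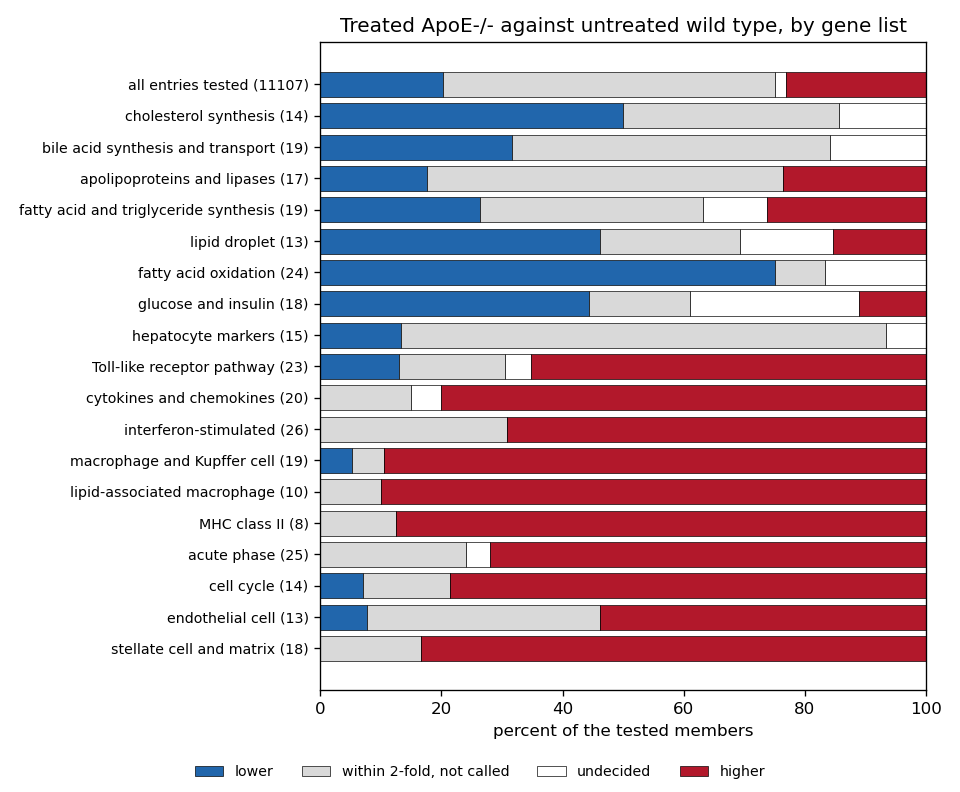
Share of the tested members of each gene list (horizontal axis, percent; number tested in brackets) that were lower, at the wild-type level, undecided or higher in treated ApoE-/- than in untreated wild-type livers, with all 11107 entries in the first bar. Fatty acid oxidation has 18 of 24 members lower, hepatocyte markers have 12 of 15 at the wild-type level, and the macrophage list has 17 of 19 higher.

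Of 25 tested acute phase genes 18 were higher and none lower, with a median of 0.76, beside 23.2% higher over all entries. Mt1, a metallothionein, was higher by 1.46 (SE 0.139), while the fibrinogen chains Fga and Fgg lay at the wild-type level at 0.14 and -0.08. Of 14 tested cell cycle genes 11 were higher and 1 lower, with a median of 1.00, or 0.33 without background correction. Of these 14 genes 7 were detected on all wild-type arrays, and 5 of those 7 were higher. Over the 20 members with a probe 12 were higher, 1 lower and 7 at the wild-type level, with a median of 0.85. Ccnd2, a cyclin of early G1, read 6.28 to 6.55 in wild type, 8.54 to 10.38 in treated and 5.90 to 6.47 in untreated ApoE-/- livers (3.12, SE 0.258, adjusted p = 1.04e-08). Mcm6 and Mcm5, subunits of the replicative helicase, were higher by 2.07 and 1.85, and other Mcm6 probes gave 1.13 and 1.6.

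Cyp2a4, a P450 known for higher levels in female liver, read 4.48, 4.79, 5.37, 4.44 and 4.49 in wild type, where it was detected on 1 array, and 10.97, 11.51, 11.54, 11.77 and 11.41 in treated ApoE-/- livers. The difference of 6.73 (SE 0.443, adjusted p = 5.72e-10) stood beside 4.85 for untreated ApoE-/- minus wild type. Its probe may share signal with the near-identical Cyp2a5, which was higher by 1.18, a call that was lost in the second batch alone (0.62). Psmd8, a proteasome subunit, was lower, differing by -2.85 (SE 0.123, adjusted p = 3.3e-12) in treated and by -2.78 in untreated ApoE-/- livers.

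Other large falls followed. Clstn3, calsyntenin-3, read 8.80, 8.89, 8.63, 8.29 and 8.42 in wild type, 5.14, 6.31, 5.76, 5.52 and 5.84 in treated and 8.13 to 9.75 in untreated ApoE-/- livers, and differed from wild type by -2.89 (SE 0.256, adjusted p = 2.45e-08). Krt23, a keratin, was lower, differing by -2.60 (SE 0.267), Slc25a30, a mitochondrial carrier, by -3.44 (SE 0.403) and Car3, carbonic anhydrase 3, by -2.96 (SE 0.316). For these genes untreated ApoE-/- minus wild type was 0.28, 0.56, -0.60 and -0.59, none called. Gpc1, a glypican, was lower, differing by -2.69 (SE 0.175) and by -0.99 in untreated ApoE-/- livers. Hsd3b5, a male-biased steroid enzyme, was lower, differing by -2.71 (SE 0.491), with wild-type arrays from 11.51 to 13.09 and treated arrays from 8.89 to 11.21. Nrep was lower, differing by -3.42 (SE 0.422) and Erdr1 by -2.57 (SE 0.776), and the Erdr1 call was lost within either batch alone (-2.21 and -3.10).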

How the data were processed

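Liver RNA of 20 samples was read on Illumina bead arrays, and 10 arrays answer the comparison. The deposited table of non-normalized values holds a bead intensity and a detection p-value per probe, and per the submitters' processing notes BeadStudio and GenomeStudio were used, versions not given. The intensities had been scaled before deposit: per the values of the deposited table, arrays share 1 of 4 means set by genotype and batch. The authors' series matrix holds linear intensity values whose ranks equal those of the table, uncentred, with the normalization not given in the sources used here. Of 45281 probes, 34885 had 1 gene symbol, 18 several and 10378 none.

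The values were background-corrected, quantile-normalised and log2-transformed with neqc (offset 16) in limma 3.58.1 under R 4.3.3. Probes detected on at least 5 of the 10 arrays were kept, and the brightest probe stood for each symbol. limma was fitted on 4 group means over all 20 arrays, with Benjamini-Hochberg adjustment over all 11107 entries. Of 200 genes changed in simulated data for this comparison (11107 entries), 34% were called at a log2 change of 0.5, 89.5% at 1 and 100% at 2. Of unchanged genes, 97.4% to 97.6% were placed at the wild-type level. So were 52.5% of the genes changed by 0.5 and 0.5% of those changed by 1, so this class can hold changes near 0.5. The simulated arrays had independent noise without batches, and far fewer genes were changed than were called in the data.

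Genes were named by a rule: 7 panel genes, the 10 largest rises and falls, up to 3 called and 2 wild-type-level genes of each list, and the 10 largest of 3 classes set by the side comparisons. A further 27 genes were named outside it: the rest of the cholesterol synthesis list, genes with promoter windows, defining markers, and Gpnmb, Mmp12, Marco, Il1b, Tlr5, Tlr13, Hadh, Ppara and Plin2, which were chosen after their values were seen. The members and lists were chosen with earlier results of these data known. Alternatives covered the batch, the slide, scaling, background correction, the filter, the probe choice, the margin and each replicate left out.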

Additional observations from a re-analysis of the deposited data

Results flagged for a closer look

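Among the 218 named genes, 436 groups of 5 arrays were checked for a single array far from the other 4, with a critical ratio of 0.71. Chance alone gives about 1 in 20 such groups, and 28 of 436 (6.42%) passed, in 26 genes. Treated ApoE-/- replicate 1 was the lone array in 9 of them, 5 high and 4 low.

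On that array 2 clock-controlled genes stood far above the rest of their group. Dbp read 10.32 beside 7.43 to 8.19, and Nr1d1 read 5.96 beside 4.43 to 4.57. Slc4a1 (7.24), Lrp1 (8.51) and Bdh1 (9.98) were also high there, and Ecm1 (10.43), Serpina1e (14.81), Gstp1 (12.7) and Clptm1 (8.18) were low. Treated replicate 2 was high for Il1b (10.02) and Csf3r (6.55) and low for Trf (15.22). Gpnmb was high on treated replicate 4 (9.13), and Tmem86a (8.82) and Muc1 (4.4) were low on treated replicate 5.

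In wild type, replicate 4 was high for Egfl7 (8.48), Vwf (4.9) and Clec4b1 (5.11). Replicate 3 was high for Slc4a1 (5.15) and Stab2 (7.99) and low for Krt23 (6.78). Replicate 5 was high for Nlrc5 (6.38) and low for Mt1 (13.01) and Aldoc (7.29). Replicate 1 was high for Trib3 (7.09) and low for Cyp2a5 (11.75), and replicate 2 was low for Fgg (12.68) and Serpina1e (14.67).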

How the results depend on the processing

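The number of called entries, 4828 by the main setting, fell to 2664 with batch 2 alone, and ranged from 4297 to 4953 with 1 replicate left out. The number at the wild-type level, 6086, ranged from 5935 to 6515 with 1 replicate left out, and was 24564 without the detection filter and 3675 with a margin of log2 0.5. The number beyond 2-fold, 404, ranged from 346 to 482 with 1 replicate left out. It was 114 with batch 2 alone, 114 without background correction, 111 from the authors' series matrix, 220 among probes detected on all 10 arrays and 1111 with a margin of log2 0.5. With a replicate block 5568 entries were called, and with the array batch as a block 5466. Deviations of same-numbered arrays from their group means correlated at 0.242, 0.025, 0.237, 0.305 and 0.243, not all above 0.1, and differently numbered arrays of a batch reached 0.327, so the numbers were not taken to pair the samples. Of the 145 named genes that were called, 126 were still called with batch 2 alone and 140 with batch 1 alone or with equal medians. Leaving out 1 replicate kept 143 to 145 of them, and 64 to 69 of the 69 at the wild-type level. Of the named genes that were called Igtp alone turned its direction, at -0.10 in batch 2, while genes at the wild-type level, such as Mvd and Fdps, changed sign around 0. The causes of these changes were not tested, apart from the smaller number of arrays, or the other number of probes and the other margin, that some of the settings bring with them. The number of arrays limits the precision, and for genes not above background in wild type the size of a rise is a bound.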

Other observations

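Several lists outside lipid and immune genes were also measured. Among all entries 23.2% were higher, 20.3% lower, 54.8% at the wild-type level and 1.74% undecided. Of 16 tested male-biased liver genes none was higher, 5 were lower, 5 lay at the wild-type level and 6 were undecided, with a median of -0.59. Of 14 female-biased genes listed 12 had a probe and 4 were tested, of which 3 were higher and 1 was undecided. Over the 12 with a probe 3 were higher and 7 at the wild-type level, with a median of 0.05. Urea cycle and amino acid genes had 6 of 14 members higher and 1 lower, with a median of 0.35. Genes of lysosomes had 9 of 16 members higher, 1 lower and 6 at the wild-type level, with a median of 0.40.

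The unfolded protein and stress response list had 3 of 15 members higher and 6 lower, with a median of -0.47. Clock genes had 1 of 11 higher, 3 lower, 3 at the wild-type level and 4 undecided. Drug-metabolising P450 genes had 4 of 15 higher and 4 lower, and NRF2 targets 3 of 14 higher and 3 lower, with 8 at the wild-type level. These shares of both lists were near those over all entries, 23.2% higher, 20.3% lower and 54.8% at the wild-type level. MHC class I presentation genes had 5 of 10 higher and 5 at the wild-type level, with a median of 0.39.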
